A study of Mus musculus with 9 samples.

Results

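Heat shock chaperones bind unfolded polypeptides and help them to fold, to cross membranes or to be passed on for degradation. The 10 genes described here encode the main cytosolic and mitochondrial heat shock chaperones of the mouse, and they were taken by symbol from the 28379 genes of the deposited expression table. They comprised the cytosolic HSP70 genes Hspa8, Hspa1a and Hspa1b, the HSP70 partners Dnajb1 and Hsph1, the cytosolic HSP90 genes Hsp90aa1 and Hsp90ab1, and the mitochondrial genes Hspa9, Hspd1 and Hspe1. Earlier results of these data were known when the 10 genes were chosen. All 10 were found in the table and all 10 passed the filter on low counts. When vitamins D and K were added to RANKL, the largest called change among them was that of Hspa9, at a log2 fold change of 2.43 ± 0.296 (SE).

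The cells were bone marrow-derived macrophages (BMDMs) of 10-week-old mice, whose strain is C57BL/6J in the study's methods and C57BL/6 in the labels, grown with macrophage colony-stimulating factor (M-CSF, 20 ng/ml), the growth factor that macrophages need. RNA sequencing was performed in 3 groups of 3 libraries. The PBS group received M-CSF and phosphate-buffered saline. The RANKL group received M-CSF and 100 ng/ml receptor activator of nuclear factor kappa-B ligand (RANKL), the cytokine that turns macrophages into bone-resorbing osteoclasts. The RANKL + Vit D + K group received the same dose of M-CSF and RANKL together with 1000 nM vitamin D, given as its active form calcitriol, and 20 μM vitamin K, given as menaquinone-4. The vitamin K dose is that of the labels, and the study's methods give another. The cells were treated for 48 hours. Cells with either vitamin alone, or with the vitamins and no RANKL, were not analysed here, so the effects of the 2 vitamins cannot be told apart. The study describes libraries of pooled RNA and does not say whether the replicates came from separate mice or cultures, so the p-values measure the spread between these libraries, which may be technical.

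HSP70 proteins hold short unfolded stretches in a cycle that is driven by ATP. J-domain proteins such as DNAJB1 bring the client and start ATP hydrolysis, and exchange factors such as HSPH1 release ADP and end the hold. HSP90 acts later on proteins that are close to their folded state, such as kinases and steroid receptors. In mitochondria HSPA9 (mortalin) pulls imported chains across the inner membrane, and the HSPD1 barrel with its HSPE1 lid encloses them while they fold. Heat shock factor 1 induces the stress-responsive members of this set through heat shock elements, which are runs of the unit GAA and its inverse TTC in alternation.

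Promoter sequences were examined because such elements are a feature that the choice by symbol did not use. RefSeq promoters on GRCm38.p6, each from 250 bases before to 50 bases after a start site, matched 6 of the 10 genes with 9 sequences. No sequence was matched for Hspa8, Hsp90aa1, Hsp90ab1 and Hspa9. Only the 250 bases before each start site were searched, here and for the shorter forms below. A run of 3 alternating units with 2 bases of any kind between neighbours was searched on both strands (GAA, TTC, GAA, or the complement TTC, GAA, TTC). It was found in 2 of the 9 sequences against 0.466% of 32851 promoters. Both matches are the same stretch of DNA, seen from Hspe1 on the plus strand and from Hspd1 on the minus strand. These genes lie head to head, and their annotated spans overlap by 112 bases (chr1:55088132-55088243). The 30 bases around the stretch (chr1:55088053-55088082, plus strand, 95 to 66 bases before the RefSeq start of Hspe1, and within an exon of an alternative Hspd1 transcript) are shown because the 2 mitochondrial partner genes share them, with the alternating units in capitals.
Hspe1 and Hspd1: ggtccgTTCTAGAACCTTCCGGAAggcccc
The run held the letters of the 3-unit element 2 times, in overlapping positions that begin 89 and 84 bases before the start of Hspe1. Letters of the shorter 2-unit form GAANNTTC, which are part of the longer form, occurred in 4 of the 9 sequences against 6.69% of all promoters, and those of TTCNNGAA in 4 of the 9 against 7.17%. The sequences of Dnajb1 held none of these forms. The windows with matches are not separate stretches of DNA. The 4 with GAANNTTC are the shared Hspe1 and Hspd1 stretch seen from both genes and the near-identical upstream DNA of Hspa1a and Hspa1b, and the 4 with TTCNNGAA are that shared stretch and 2 overlapping windows of Hsph1.

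The stress-inducible HSP70 genes Hspa1a and Hspa1b are neighbours on chromosome 17, and their upstream DNA is nearly the same. In the 250 bases before the start site 247 were identical and 3 differed. The 150 bases before each start site are shown because they make plain how alike these 2 genes are (Hspa1a, chr17:34972157-34972306; Hspa1b, chr17:34959239-34959388; both minus strand, 5′ to 3′), with the letters GAANNTTC in capitals, which begin 104 bases before each start.
Hspa1a: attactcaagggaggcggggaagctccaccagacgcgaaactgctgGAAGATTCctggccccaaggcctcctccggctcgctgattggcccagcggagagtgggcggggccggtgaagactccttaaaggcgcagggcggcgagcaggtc
Hspa1b: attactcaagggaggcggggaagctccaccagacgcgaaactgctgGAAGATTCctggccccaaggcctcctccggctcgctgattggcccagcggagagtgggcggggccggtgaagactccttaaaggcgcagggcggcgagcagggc
These 2 printed stretches differed at 1 base. A match of letters describes the sequence and is not evidence that a factor bound there.

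The libraries held 65915112 to 68229647 counts each, and the 10 genes took 0.275 to 0.291% of the counts in PBS, 0.355 to 0.460% in RANKL and 0.418 to 0.473% in RANKL + Vit D + K. Levels are given as FPKM, fragments counted per length of transcript and per size of library, and changes as log2 fold changes by edgeR's quasi-likelihood test on counts, with p-values adjusted by the Benjamini-Hochberg method over 17002 genes and a threshold of 0.05. Replicate 2 stood apart in both RANKL-treated groups. In RANKL it held the highest FPKM for 10 of the 10 genes, and in RANKL + Vit D + K it held the highest FPKM for Dnajb1, Hsph1, Hsp90aa1 and Hsp90ab1 and the lowest for Hspa1a, Hspa1b, Hspa9 and Hspd1. On the log2 scale of TMM-normalised counts, RANKL replicate 2 was the highest of its group for 9 of the 10 genes and for 35.7% of all tested genes. On that scale, replicate 2 of RANKL + Vit D + K was the highest for 3 of the 10, against 44.5% of all tested genes. It was the lowest for 6 of the 10, against 38.6%. The counts of called genes are therefore also given without replicate 2 of these 2 groups, an alternative chosen after the data were seen, and single genes where it changed a call.

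The 7 macrophage markers checked were all detected, with a summed FPKM of 26283 to 30490 in PBS, 16600 to 24185 in RANKL and 4485 to 11507 in RANKL + Vit D + K. Most of this sum was Lyz2, at a mean of 26731 in PBS. With the vitamins 5 of the 7 were called lower than with RANKL, against 17.2% of all tested genes, Cd68 was called higher (0.53, edgeR adjusted p = 0.0143) and Itgam was not called. All 7 osteoclast markers were called higher in RANKL than in PBS, against 2.35% of all tested genes, and 6 of the 7 were called lower with the vitamins than with RANKL, against the same 17.2%. The 8 neutrophil markers summed to 11.1 to 128 FPKM in PBS, 11.3 to 148 in RANKL and 0.551 to 1.72 with the vitamins. Of the markers of other cells, 3 of 4 B cell, 1 of 4 T cell, 4 of 4 stromal and 3 of 4 erythroid genes were found in the table. The summed FPKM of B cell, T cell, stromal and erythroid markers was at most 0.795, 3.76, 0.274 and 0.346 in any library. At these low levels, with the log2 change in edgeR in brackets, Cd79b (-5.64), Cd4 (-3.96) and Col1a1 (-4.61) were called lower with the vitamins than with RANKL, and Cd4 was called higher with RANKL than with PBS (2.35). In bulk RNA, fewer cells of a type and less RNA per cell cannot be told apart. The part of these shifts in the chaperone results below was not tested.

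In the PBS group the chaperone genes spanned a wide range of mean FPKM. Hspa8 was the highest at 315 ± 13.9 (SD, n = 3), followed by Hsp90ab1 at 266 ± 16.4, and these 2 groups of libraries did not overlap. They ranked 91 and 100 among all genes of the table. The 3 mitochondrial genes followed closely together, with Hspa9 at 28.8 ± 1.18, Hspd1 at 26.3 ± 0.919 and Hspe1 at 24.6 ± 1.10, of which Hspd1 and Hspe1 overlapped. Hsp90aa1 stood at 19.1 ± 2.75, Dnajb1 at 6.81 ± 0.763 and Hsph1 at 3.23 ± 0.284. The inducible genes Hspa1b (0.345 ± 0.156) and Hspa1a (0.286 ± 0.0737) were the lowest and overlapped each other.

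The order changed among the middle and upper genes. In RANKL, Hspa8 and Hsp90ab1 remained the 2 highest, with overlapping libraries, while the libraries of Hspd1, Hspa9 and Hsp90aa1 overlapped each other between 30.6 and 87.1 FPKM. In RANKL + Vit D + K the mean of Hspa9 came close to those of Hsp90ab1 and Hspa8, and the libraries of each neighbouring pair in this upper trio overlapped. By mean FPKM over all genes of the table, Hspa9 ranked 1428 in PBS, 748 in RANKL and 112 with the vitamins. Hspd1 ranked 1593, 652 and 369 in the same groups, and Hspe1 ranked 1704, 1033 and 865.

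**Figure D1:**
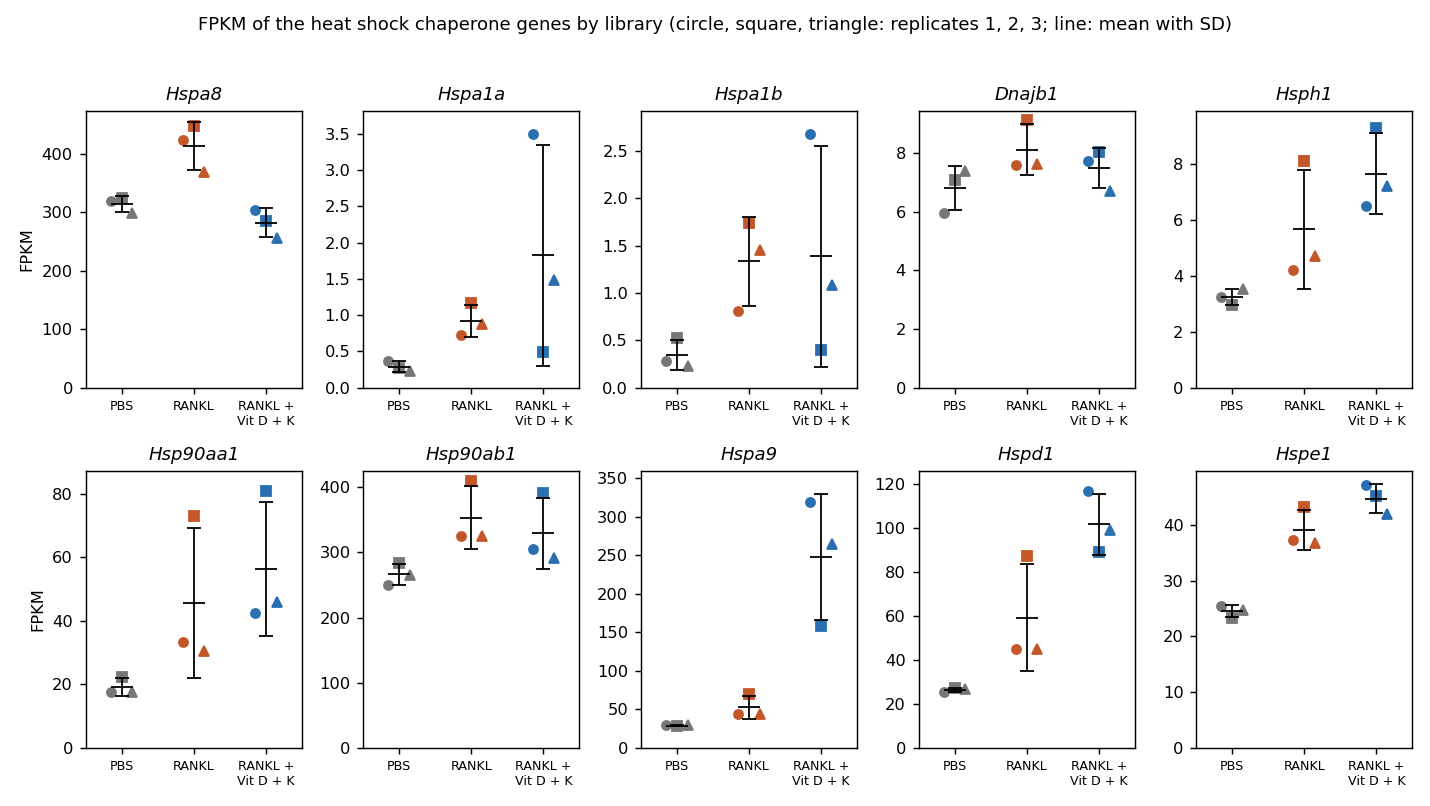
FPKM (vertical axis, starting at 0) of each chaperone gene in the 9 libraries, with circles, squares and triangles for replicates 1, 2 and 3 and a line with bars for the mean and SD. Hspa9 lies between 27.6 and 69.2 FPKM in the PBS and RANKL libraries and between 158 and 319.6 in the libraries with vitamins, while the mean of Hspa8 is lowest with the vitamins, whose libraries overlap those of PBS.

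The comparison of RANKL with PBS asked which genes changed as macrophages were driven towards osteoclasts. Of the 10 genes 1 was called higher by edgeR, against 2.35% of all tested genes, and 0 was called lower, against 1.26%. In FPKM every RANKL library lay above every PBS library for 10 of the 10 genes, against 22.4% of all tested genes. On TMM-normalised counts this held for 9 of the 10, against 15.7%, because Dnajb1 overlapped. At an unadjusted p under 0.05 there were 8 higher, against 9.96%, and 0 lower, against 8.65%. DESeq2 called 5 higher, against 6.21%, and 0 lower, against 3.78%, and limma on log2(FPKM + 0.1) called 2 higher, against 3.56%, and 0 lower, against 1.22%. The median log2 fold change of the 10 genes was 0.69, beside -0.04 over all tested genes. From their correlations, the replicate numbers were taken to pair the libraries of these 2 groups. The replicate number was then used as a block over all 9 libraries, including those with vitamins. In that fit 2 genes were called higher, Hsp90aa1 in addition to Hspe1 (edgeR adjusted p = 0.0198 and 0.0430), beside 3.16% of all tested genes. The count changed with the libraries included. It was 0 without any 1 of the 6 PBS and RANKL libraries. Without replicate 2 of RANKL + Vit D + K, which took part in the shared estimate of spread, it was 6. It was 2 without replicate 1 of that group, and 4 without both replicates 2. The share of all tested genes called higher moved with it, at 0.54 to 1.28% without 1 of the PBS or RANKL libraries, 5.46% and 2.78% without replicate 2 or 1 of RANKL + Vit D + K, and 4.81% without both replicates 2.

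The comparison of RANKL + Vit D + K with RANKL asked what the vitamins changed under RANKL. Of the 10 genes 3 were called higher, against 16.4% of all tested genes, and all 3 were the mitochondrial genes Hspa9, Hspd1 and Hspe1. Hspa8 was called lower, 1 of 10 against 17.2%. The other 6 cytosolic genes were not called by edgeR. At an unadjusted p under 0.05 there were 4 higher, against 21.1% of all tested genes, DESeq2 called 4 higher, against 19%, with Hsph1 as the added gene, and limma called 2 higher, against 12.8%. The median log2 fold change of the 10 genes was 0.40, beside -0.04 over all tested genes. Without both replicates 2, 6 genes were called higher, namely Hspa1a, Hsph1 and Hsp90aa1 in addition to the mitochondrial genes, and Hspa8 remained called lower, in a fit that called 21.8% of all tested genes higher and 27.3% lower. The number called higher was 1 without replicate 1 or 3 of RANKL or of RANKL + Vit D + K, where 8.91 to 10.1% of all tested genes were, and Hspa8 was not called without any 1 of the RANKL libraries or without replicate 3 of RANKL + Vit D + K.

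Against PBS, the RANKL + Vit D + K group had 8 of the 10 genes called higher, against 19.8% of all tested genes, and 0 called lower, against 21%. None of the 10 was lower at an unadjusted p under 0.05, by DESeq2 or by limma, against 26.1%, 24.2% and 22.7% of all tested genes. The 2 genes that were not called were Hspa8 and Dnajb1. Without both replicates 2 the same 8 were called, against 25.6% of all tested genes. This comparison shares its libraries with the other 2, so its values follow from theirs and are given side by side. The all-gene median moved by over 0.1 when libraries were scaled by their totals in place of TMM, from -0.04 to -0.18 for the vitamins against RANKL and from -0.04 to 0.08 for RANKL against PBS. Under that scaling 39.4% of the genes called between the vitamins and RANKL were higher, beside 48.8% under TMM and 35.6% by limma on log2(FPKM + 0.1), and 76.4% beside 65.1% between RANKL and PBS.

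**Figure D2:**
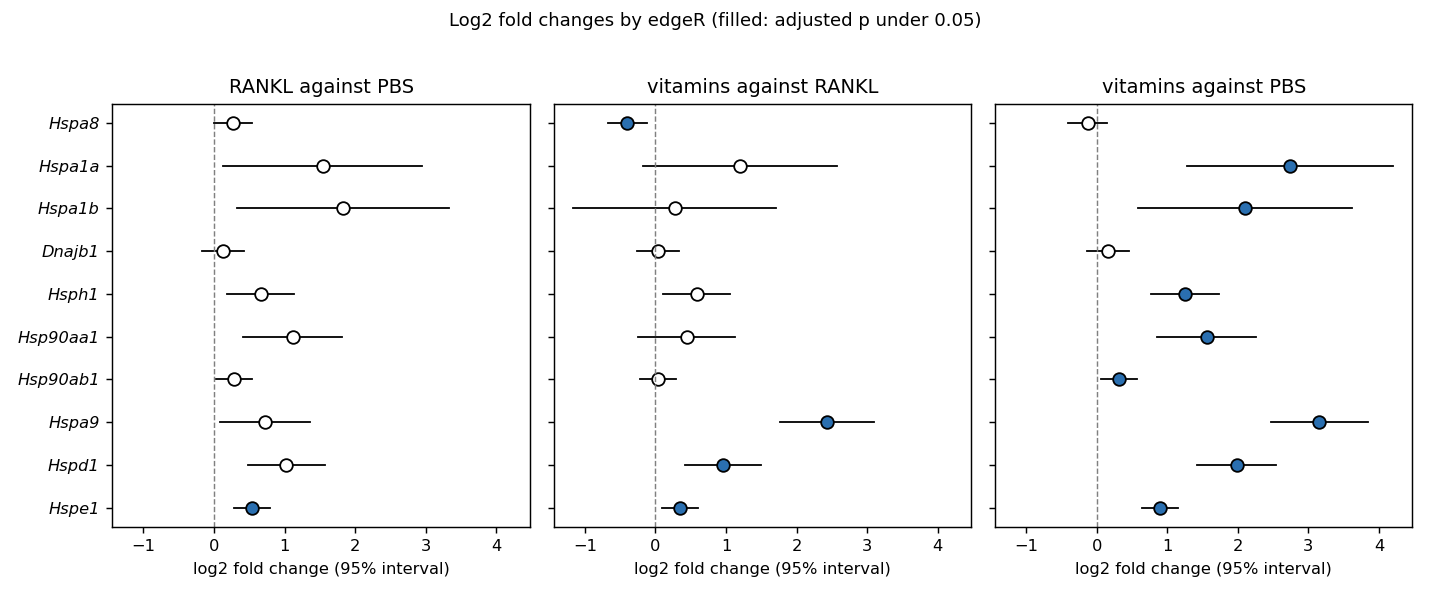
Log2 fold changes by edgeR (horizontal axis) with 95% intervals for the 10 chaperone genes in the 3 comparisons, filled where the adjusted p is under 0.05. Hspa9 (2.43), Hspd1 (0.96) and Hspe1 (0.35) are filled to the right and Hspa8 (-0.40) to the left in the comparison of the vitamins with RANKL.

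Hspa9 encodes mortalin, the mitochondrial HSP70 that works as the import motor and in folding inside the matrix (ENSMUSG00000024359, chr18:34937414-34954357, minus strand, GRCm38). Its FPKM was 28.9, 27.6 and 29.97 in PBS replicates 1 to 3, 44.4, 69.2 and 43.6 in RANKL, and 319.6, 158 and 264 in RANKL + Vit D + K. The groups did not overlap in any comparison, and replicate 2 was the highest of RANKL and the lowest of RANKL + Vit D + K. In counts, the libraries with vitamins held 102939, 52534 and 84905, against 14305, 22272 and 14620 with RANKL alone. The log2 fold change of the vitamins against RANKL was 2.43 ± 0.296 (SE, edgeR adjusted p = 0.000948), a fold of 5.38, and its 95% interval ran from 1.76 to 3.10. This call held in 19 of 19 alternatives, with log2 fold changes from 2.14 to 2.88 and an adjusted p of at most 0.00834. RANKL against PBS gave 0.72 ± 0.283 (edgeR adjusted p = 0.210). This passed the threshold in edgeR with only the 2 groups compared (0.78, adjusted p = 0.0287). It also did without replicate 2 of RANKL + Vit D + K (0.73, adjusted p = 0.0268) and without both replicates 2 (0.56, adjusted p = 0.0204). The vitamins against PBS gave 3.15 ± 0.305 (edgeR adjusted p = 0.000255).

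Hspd1 encodes HSP60, the barrel-shaped mitochondrial chaperonin (ENSMUSG00000025980, chr1:55077835-55088243, minus strand). Its FPKM was 25.3, 27.1 and 26.6 in PBS, 45.1, 87.1 and 45.0 in RANKL, and 117, 89.1 and 98.8 in RANKL + Vit D + K. The groups did not overlap, but the highest RANKL library, replicate 2, came close to the lowest library with vitamins. The log2 fold change of the vitamins against RANKL was 0.96 ± 0.240 (edgeR adjusted p = 0.0154). The call was lost without replicate 1 or 3 of RANKL (0.81 and 0.82, adjusted p = 0.0640 and 0.0614) or of RANKL + Vit D + K (0.79 and 0.95, adjusted p = 0.0608 and 0.0512), and without both replicates 2 the change was 1.40 (adjusted p = 3.47e-05). RANKL against PBS gave 1.02 ± 0.241 (edgeR adjusted p = 0.0527), just outside the threshold, and 8 of 19 alternatives placed it inside, among them DESeq2 and limma. It was inside without replicate 1 of RANKL + Vit D + K (adjusted p = 0.0434), without replicate 2 of that group (adjusted p = 0.0230) and without both replicates 2 (0.73, adjusted p = 0.00507).

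Hspe1 encodes HSP10, the lid of the HSP60 barrel (ENSMUSG00000073676, chr1:55088132-55091307, plus strand). Its FPKM was 25.5, 23.4 and 24.8 in PBS, 37.4, 43.2 and 36.7 in RANKL, and 47.1, 45.2 and 42.1 in RANKL + Vit D + K. RANKL libraries all lay above PBS libraries, and RANKL replicate 2 overlapped the libraries with vitamins. It was the gene called between RANKL and PBS, at 0.54 ± 0.113 (SE, edgeR adjusted p = 0.0352), and the call was lost without any 1 of the 6 libraries compared, with log2 fold changes from 0.51 to 0.63 and adjusted p from 0.0831 to 0.115. The vitamins against RANKL gave 0.35 ± 0.112 (edgeR adjusted p = 0.0392). This call was lost in 14 of 19 alternatives, among them the scaling by library totals (0.20, adjusted p = 0.171), the replicate block (0.34, adjusted p = 0.0510) and each library left out in turn except replicate 2 of RANKL + Vit D + K (0.26 to 0.39, adjusted p from 0.0520 to 0.139). The vitamins against PBS gave 0.89 ± 0.113 (edgeR adjusted p = 0.000636).

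HSP60 and HSP10 act as a pair and their genes share the printed stretch of promoter DNA, so their ratio within a library was examined. The FPKM of Hspd1 divided by that of Hspe1 was 0.993, 1.16 and 1.07 in PBS, 1.20, 2.02 and 1.22 in RANKL, and 2.47, 1.97 and 2.35 in RANKL + Vit D + K. RANKL lay above PBS in each library, and RANKL replicate 2 reached into the range of the libraries with vitamins. The ratio of Hspa9 to Hspd1 was 1.10 ± 0.0672 in PBS, 0.916 ± 0.106 in RANKL and 2.40 ± 0.538 with the vitamins (SD, n = 3). Hspa9 divided by the cytosolic Hspa8 was 0.0918 ± 0.00779, 0.126 ± 0.0258 and 0.878 ± 0.281 in these groups. With 3 libraries against 3, the exact two-sided permutation test cannot give a p below 0.1, and the ratios are given as a description.

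**Figure D3:**
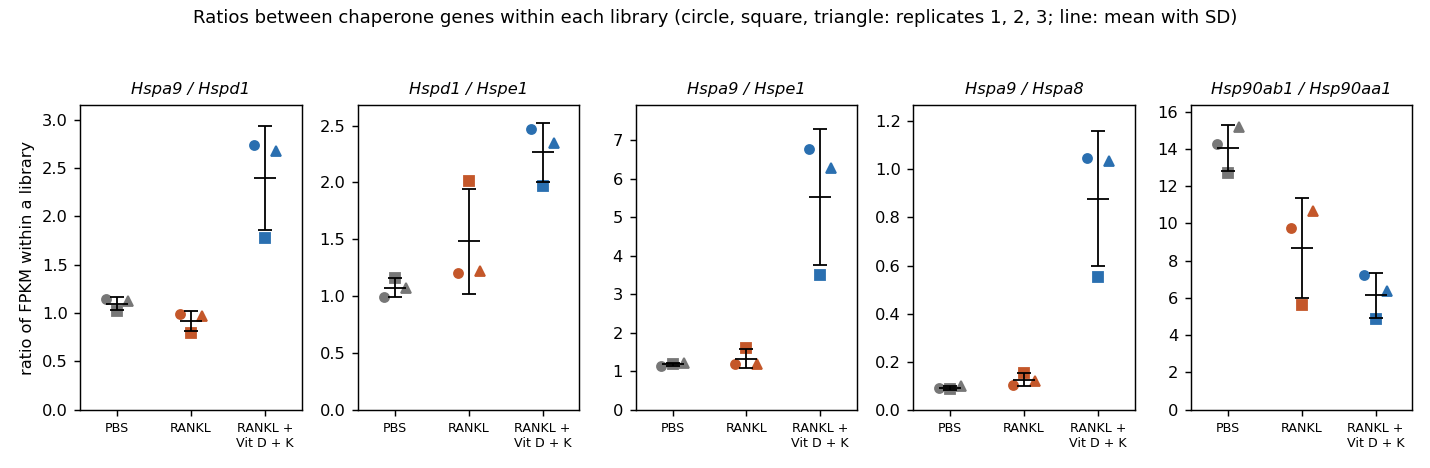
Ratios of FPKM between pairs of chaperone genes within each library (vertical axes, starting at 0), with circles, squares and triangles for replicates 1, 2 and 3 and a line with bars for the mean and SD. The ratio of Hspa9 to Hspd1 lies between 0.794 and 1.14 in the PBS and RANKL libraries and between 1.78 and 2.74 with the vitamins, and the ratio of Hsp90ab1 to Hsp90aa1 is highest in PBS.

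As a share of all counts the 3 mitochondrial genes together took 0.0251 to 0.0267% in PBS, 0.0408 to 0.0659% in RANKL and 0.111 to 0.196% in RANKL + Vit D + K. The 7 cytosolic genes took 0.249 to 0.266%, 0.314 to 0.394% and 0.253 to 0.318% in the same groups. The mitochondrial shares of the 3 groups did not overlap, whereas the cytosolic share overlapped between RANKL and RANKL + Vit D + K.

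Hspa8 encodes HSC70, the HSP70 that cells make constantly (ENSMUSG00000015656, chr9:40800984-40810087, plus strand). Its FPKM was 319, 326 and 299 in PBS, 425, 448 and 369 in RANKL, and 305, 286 and 256 in RANKL + Vit D + K. The RANKL libraries lay above all others, and PBS overlapped with the vitamins. Adding the vitamins to RANKL lowered Hspa8 by edgeR, at -0.40 ± 0.121 (SE, adjusted p = 0.0322). The call was lost without RANKL replicate 1, 2 or 3 (-0.36, -0.38 and -0.45, adjusted p = 0.112, 0.0659 and 0.0540) or replicate 3 of RANKL + Vit D + K (-0.35, adjusted p = 0.109). The difference between RANKL and PBS was 0.27 ± 0.121 (edgeR adjusted p = 0.274) and the vitamins against PBS gave -0.13 ± 0.121 (edgeR adjusted p = 0.423).

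Hspa1a and Hspa1b encode the inducible HSP70 of the heat shock response (ENSMUSG00000091971, chr17:34969190-34972156, and ENSMUSG00000090877, chr17:34956436-34959238, both minus strand). Hspa1a held 81, 60 and 50 counts in PBS, 162, 258 and 201 in RANKL, and 775, 114 and 328 in RANKL + Vit D + K. Hspa1b held 59, 110 and 48, then 171, 364 and 317, then 561, 87 and 226. RANKL libraries were all above PBS libraries for both genes, while replicate 2 with the vitamins fell below every RANKL library in both. No other member varied so widely within a group: the highest FPKM with the vitamins was 7.05 times the lowest for Hspa1a and 6.67 times for Hspa1b.

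RANKL against PBS gave log2 fold changes of 1.54 ± 0.626 for Hspa1a and 1.82 ± 0.667 for Hspa1b (SE, edgeR adjusted p = 0.227 and 0.180). Both passed the threshold in edgeR with only the 2 groups compared (1.60 and 1.88, adjusted p = 0.0196 and 0.0305). They also did without replicate 2 of RANKL + Vit D + K (1.54 and 1.82, adjusted p = 0.0347 and 0.0415). Neither did without both replicates 2 (1.43 and 1.68, adjusted p = 0.0741 and 0.0901). DESeq2 called Hspa1b (adjusted p = 0.0430) and not Hspa1a (adjusted p = 0.0855). The vitamins against RANKL gave 1.20 ± 0.610 for Hspa1a (edgeR adjusted p = 0.158), which became 1.67 without replicate 2 of RANKL + Vit D + K (adjusted p = 0.00742), 1.79 without both replicates 2 (adjusted p = 0.0111) and 0.25 without replicate 1 of that group (adjusted p = 0.756). For Hspa1b the same comparison gave 0.27 ± 0.640 (edgeR adjusted p = 0.773) and 0.88 without both replicates 2 (adjusted p = 0.220), and its direction turned without replicate 1 of RANKL + Vit D + K (-0.71, adjusted p = 0.395) and by limma on log2(FPKM + 0.1) (-0.22). Against PBS, Hspa1a was called higher with the vitamins at 2.75 ± 0.648 (edgeR adjusted p = 0.00948) and Hspa1b at 2.10 ± 0.673 (edgeR adjusted p = 0.0338), of which the call of Hspa1b was lost in 10 of 18 alternatives, among them the fits without replicate 1 (1.17) or 3 (2.29) of RANKL + Vit D + K, replicate 1 (2.02) or 3 (1.92) of PBS, or replicate 3 of RANKL (2.10).

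The 2 genes cannot be fully separated by reads. In their transcripts, 47.1% of the 100-base windows of Hspa1a and 49.9% of those of Hspa1b occurred in the other gene, and how the authors counted such reads is not stated in the sources used here. Summed over both genes, RANKL against PBS gave a log2 fold change of 1.70 (edgeR adjusted p = 0.180), the vitamins against RANKL 0.74 (adjusted p = 0.372) and the vitamins against PBS 2.44 (adjusted p = 0.0145). The ratio of Hspa1a to Hspa1b counts was 0.987 ± 0.416 in PBS, 0.763 ± 0.164 in RANKL and 1.38 ± 0.0705 with the vitamins.

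Dnajb1 encodes the inducible J-domain partner of HSP70 (ENSMUSG00000005483, chr8:83608193-83612653, plus strand). Its FPKM was 5.94, 7.09 and 7.39 in PBS, 7.60, 9.13 and 7.64 in RANKL, and 7.74, 8.05 and 6.72 in RANKL + Vit D + K. The RANKL libraries lay narrowly above PBS, and the libraries with vitamins overlapped both. No comparison was called, with log2 fold changes of 0.13 ± 0.133 for RANKL against PBS, 0.04 ± 0.133 for the vitamins against RANKL and 0.16 ± 0.133 for the vitamins against PBS. The 95% interval for the vitamins against RANKL ran from -0.26 to 0.34, and the sign of this small difference turned under library totals (-0.11) and without replicate 1 of RANKL + Vit D + K (-0.04).

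Hsph1 encodes HSP110, the exchange factor of HSP70 that also holds unfolded proteins (ENSMUSG00000029657, chr5:149614287-149636376, minus strand). Its FPKM was 3.24, 2.94 and 3.51 in PBS, 4.19, 8.09 and 4.68 in RANKL, and 6.48, 9.26 and 7.20 in RANKL + Vit D + K. Replicate 2 was the highest in both RANKL-treated groups, and RANKL replicate 2 overlapped the libraries with vitamins. The vitamins against RANKL gave 0.59 ± 0.210 (SE, edgeR adjusted p = 0.0574), just outside the threshold. Without RANKL replicate 2 this became 0.88 (adjusted p = 0.00467), and without both replicates 2 it was 0.77 (adjusted p = 0.00138). DESeq2 gave 0.58 (adjusted p = 0.0422). From PBS to RANKL the change was 0.66 ± 0.211 (edgeR adjusted p = 0.128), 0.37 without RANKL replicate 2 (adjusted p = 0.331) and 0.41 without both replicates 2 (adjusted p = 0.0682), while DESeq2 called it (0.69, adjusted p = 0.0436). The vitamins against PBS gave 1.25 ± 0.213 (edgeR adjusted p = 0.00216), which held in 19 of 19 alternatives.

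Hsp90aa1 encodes the inducible form of cytosolic HSP90 (ENSMUSG00000021270, chr12:110690605-110702728, minus strand). Its FPKM was 17.6, 22.3 and 17.5 in PBS, 33.4, 72.9 and 30.6 in RANKL, and 42.4, 80.8 and 45.9 in RANKL + Vit D + K. Replicate 2 was the highest in each group, RANKL lay above PBS, and the RANKL-treated groups overlapped. The change from PBS to RANKL was 1.11 ± 0.309 (SE, edgeR adjusted p = 0.0871), which passed the threshold without replicate 2 of RANKL + Vit D + K (1.11, adjusted p = 0.0383) and without both replicates 2 (0.70, adjusted p = 0.00887), and was 0.66 without RANKL replicate 2 alone (adjusted p = 0.235). DESeq2 called it as well (1.14, adjusted p = 0.00871). The vitamins against RANKL gave 0.45 ± 0.305 (edgeR adjusted p = 0.288), which was 0.90 without RANKL replicate 2 (adjusted p = 0.0210), 0.61 without both replicates 2 (adjusted p = 0.00344), 0.19 without replicate 2 of RANKL + Vit D + K (adjusted p = 0.640), and 0.28 and 0.25 without RANKL replicates 1 and 3 (adjusted p = 0.591 and 0.614). The vitamins against PBS gave 1.56 ± 0.312 (edgeR adjusted p = 0.00453), and this call held in 19 of 19 alternatives.

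Hsp90ab1 encodes the constitutive HSP90 of the cytosol (ENSMUSG00000023944, chr17:45567775-45573271, minus strand). Its FPKM was 251, 284 and 265 in PBS, 326, 409 and 326 in RANKL, and 306, 392 and 291 in RANKL + Vit D + K. Both RANKL-treated groups lay above PBS and overlapped each other. RANKL differed from PBS by 0.28 ± 0.113 (SE, edgeR adjusted p = 0.225). The vitamins against RANKL gave 0.04 ± 0.113 with a 95% interval from -0.21 to 0.30, and the sign turned under library totals (-0.10) and without replicate 2 of RANKL + Vit D + K (-0.02). The vitamins against PBS gave 0.32 ± 0.113 (edgeR adjusted p = 0.0465), a call lost in 12 of 19 alternatives, among them the fits without any 1 of the PBS libraries, replicate 1 or 3 of RANKL, or replicate 1 or 2 of RANKL + Vit D + K (0.26 to 0.40, adjusted p from 0.0595 to 0.115). The FPKM ratio of Hsp90ab1 to Hsp90aa1 was 14.1 ± 1.24 in PBS, 8.67 ± 2.69 in RANKL and 6.14 ± 1.20 with the vitamins, and each PBS library lay above each RANKL-treated library.

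Reads of several chaperone genes could also be shared with processed copies elsewhere in the genome. In the GENCODE M21 transcripts, 38.0% of the 100-base windows of Hsp90aa1, 28.5% of Hspa8, 23.9% of Hspd1 and 10.98% of Hspe1 occurred in another gene, and none of those of Dnajb1, Hsph1, Hsp90ab1 and Hspa9 did. The copies that share most with 3 of these genes were counted: Gm15459 held 9.55% of the counts of Hspa8, Gm12346 held 3.08% of those of Hsp90aa1 and Hspd1-ps3 held 2.45% of those of Hspd1. Hspd1 and Hspe1 also overlap on opposite strands, and whether the counting used the strand is not stated in the sources used here.

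Genes known to work with these chaperones were taken from lists, and are described by their counts and medians. The lists too were chosen with earlier results of these data known. For the vitamins against RANKL these stand beside 16.4% of all tested genes called higher, 17.2% called lower and a median of -0.04, and several of the shares below lie near that background. Of the heat shock factor list 4 of 6 genes were tested. With the vitamins Hsf1 and Hsf2, which encode the transcription factors, were higher than with RANKL (0.51 ± 0.128 and 0.74 ± 0.127, edgeR adjusted p = 0.0149 and 0.00351), and Hsbp1, whose product binds heat shock factor 1, was lower (-0.50, adjusted p = 0.0184). In levels, Hsf1 stood at 3.36 ± 0.381 FPKM in RANKL and 4.31 ± 0.0923 with the vitamins (SD, n = 3). Between RANKL and PBS 0 of the 4 was called by edgeR, DESeq2 or limma or at an unadjusted p under 0.05.

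Of 15 J-domain co-chaperones, the vitamins raised 4 and lowered 1 relative to RANKL, with a median log2 fold change of -0.06. The 3 highest-ranked were Dnajc21 (1.59), which acts in ribosome assembly, Dnaja2 (0.75), a cytosolic partner of HSP70, and Dnajc2 (0.57), a ribosome-bound partner, while Dnajb14 of the endoplasmic reticulum membrane was lower (-0.86). Of 10 exchange factors and cofactors of HSP70, 3 were higher and 0 lower, namely Bag5 (0.57), Bag4 (0.52) and the HSP110 relative Hspa4 (0.34), with a median of 0.31. Of 16 co-chaperones of HSP90, 3 were higher and 0 lower, with a median of 0.01: Ptges3 (0.82), which encodes p23, the isomerase gene Ppid (0.56) and the ATPase activator Ahsa1 (0.50). For both of these lists the count lower was 0 also by DESeq2, by limma and at an unadjusted p under 0.05. DESeq2 called 4 exchange factors and 3 HSP90 co-chaperones higher, and limma called 1 of each. Of the 9 small heat shock protein genes 5 were tested and 0 was called in either direction, also by DESeq2, by limma and at an unadjusted p under 0.05, and their summed FPKM was at most 3.56 in any library.

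The TRiC chaperonin folds actin and tubulin, and prefoldin delivers them to it. Of 8 TRiC subunits, 3 were higher with the vitamins than with RANKL (Cct2 0.39, Cct7 0.50 and Cct8 0.41), with a median of 0.37, and limma called 0. Of 6 prefoldin subunits, 3 were higher (Pfdn6 0.70, Vbp1 0.68 and Pfdn2 0.54), with a median of 0.47. The count lower was 0 in both lists by edgeR, also at an unadjusted p under 0.05 and by DESeq2 for both, while limma called 1 prefoldin subunit lower. Between RANKL and PBS edgeR called 0 of either list, with 5 TRiC subunits and 0 prefoldin subunits higher at an unadjusted p under 0.05, and DESeq2 called 4 and 0 and limma 1 and 0.

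Among 10 further chaperones and import partners of mitochondria, 3 were higher with the vitamins than with RANKL and 1 was lower, with a median of 0.28. Dnaja3, the mitochondrial J-domain partner of mortalin, stood at 10.3 ± 1.17 FPKM in RANKL and 25.1 ± 6.14 with the vitamins (log2 fold change 1.46, edgeR adjusted p = 0.00203). The exchange factor gene Grpel2 (0.92) and the disaggregase gene Clpb (0.53) were also higher, and Dnajc15 of the import motor was lower (-0.44). Trap1, the mitochondrial HSP90, was called between RANKL and PBS (0.63, edgeR adjusted p = 0.0301), 1 of these 10 by edgeR and by limma and 2 by DESeq2 and at an unadjusted p under 0.05. Of 8 mitochondrial proteases, 3 were higher with the vitamins, with a median of 0.41, and 0 lower, also by DESeq2, by limma and at an unadjusted p under 0.05. Lonp1, which encodes the Lon protease of the matrix, stood at 14.4, 16.2 and 14.0 FPKM in RANKL and 75.1, 41.8 and 69.0 with the vitamins, so that replicate 2 was the lowest of the latter group as it was for Hspa9. Its log2 fold change was 2.24 (edgeR adjusted p = 0.000619), followed by Afg3l2 (1.14) and Clpp (0.61).

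The counterparts of these chaperones in the endoplasmic reticulum were all higher with the vitamins than with RANKL. These were 4 of 4, against 16.4% of all tested genes, with a median of 1.27, and limma called 3 of the 4. They comprised Hspa13 (1.40), Hspa5 (1.36), which encodes BiP, Hyou1 (1.17) and Hsp90b1 (0.43), the last of which is named here to complete the count of 4. Hspa5 stood at 134.8, 140.8 and 146 FPKM in RANKL and 400.4, 208 and 352 with the vitamins. Replicate 2 was again the lowest of its group, as it was for 38.6% of all tested genes on TMM-normalised counts. Of 10 immediate early genes, which respond quickly to many stimuli, Atf3 (3.65), Jun (2.34) and Dusp1 (1.83) were higher, 0 were lower also by DESeq2, by limma and at an unadjusted p under 0.05, and the list's median was -0.14. Replicate 2 with the vitamins stood apart here, with 59.7 FPKM of Fos against 0.640 and 0.404 in replicates 1 and 3. It held 15.0 of Egr1 against 0.293 and 0.0894, and 25.4 of Ier2 against 1.37 and 0.701. Replicate 2 was also the highest for these genes in PBS and in RANKL, where Fos was at 64.9, 145 and 23.5. Atf3, Jun and Junb went the other way with the vitamins and were lowest in replicate 2, as in Atf3 (117 against 427 and 370). These genes are named after their values were seen.

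Between RANKL and PBS few of these partners were called, as of all tested genes (2.35% higher and 1.26% lower). Of the J-domain genes Dnajc2 was higher (0.58, edgeR adjusted p = 0.0390) and 0 was lower, with 3 lower at an unadjusted p under 0.05, 1 by DESeq2 and 0 by limma. Of the HSP70 exchange factors, HSP90 co-chaperones, mitochondrial proteases, endoplasmic reticulum counterparts and immediate early genes, edgeR called 0 in either direction. At an unadjusted p under 0.05, 1 HSP90 co-chaperone, 1 protease and 1 immediate early gene were higher and 0 lower, DESeq2 called 1 immediate early gene higher, and limma called 0. Against PBS, where 19.8% of all tested genes were called higher and 21% lower, the libraries with vitamins had 6 of 10 exchange factors, 6 of 8 TRiC subunits, 5 of 10 mitochondrial chaperones and import partners, 6 of 8 mitochondrial proteases and 4 of 4 endoplasmic reticulum counterparts called higher, and 0 of these lists lower by edgeR, DESeq2, limma or an unadjusted p under 0.05. The J-domain list had 4 higher and 5 lower of 15, the HSP90 co-chaperones had 4 higher and 1 lower of 16, and prefoldin had 4 higher and 1 lower of 6.

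**Figure D4:**
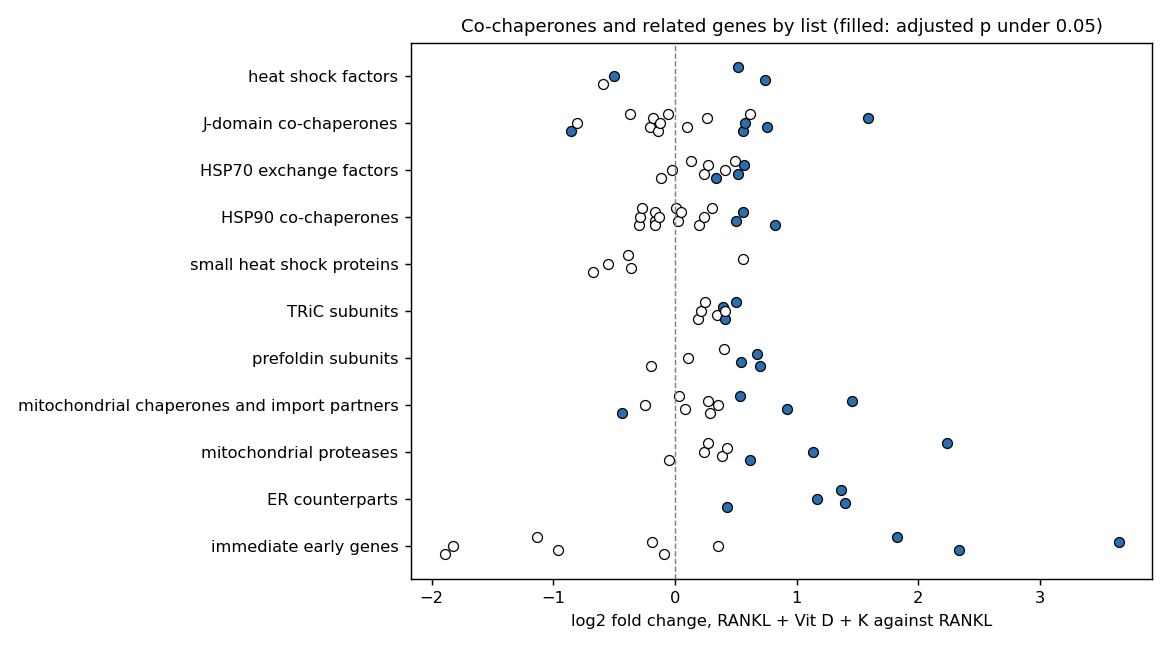
Log2 fold changes of RANKL + Vit D + K against RANKL (horizontal axis) for the tested genes of 11 related lists (vertical axis, spread only to part the points), filled where the edgeR adjusted p is under 0.05. All 4 endoplasmic reticulum counterparts are filled on the right, none of the 5 small heat shock protein genes is filled, and Lonp1 (2.24) is the rightmost mitochondrial protease.

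Profiles most like the chaperones were listed as a description, by Pearson's r of log2 TMM-normalised counts over the 9 libraries, which share the 3 groups as well as any difference in depth. For the mean of the 3 mitochondrial genes these were Rgl1, Pinx1, Taf4b, Eif4a1 and Ppp2ca, with r from 0.992 to 0.995. For the summed counts of Hspa1a and Hspa1b these were the ribosomal protein genes Rps6, Rpl36a and Rpl4 together with Mtmr1 and Oma1, with r from 0.944 to 0.9597. None of the latter 5 was called between the vitamins and RANKL or between RANKL and PBS.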

How the data were processed

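RNA sequencing of mouse BMDMs was analysed in 3 groups of 3 libraries, grouped by the labels. The authors deposited 1 table with raw read counts per gene and with FPKM, which the authors normalised for transcript length and library size. Libraries were poly(A)-selected and sequenced in pairs. The submitters' processing notes name cutadapt 1.9, HISAT2 2.0.4, StringTie 1.3.4d, edgeR and a human build, while 86.959% of the table's genes and all 10 chaperone genes carry the coordinates of GENCODE M21 on GRCm38, which was used here. The program and strand setting used for counting are not given in the sources used here.

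The counts were tested in R 4.3.3 with edgeR 4.0.16 (filterByExpr, TMM, quasi-likelihood test, 1 model of all 9 libraries, Benjamini-Hochberg adjustment over 17002 of 28379 genes, threshold 0.05), after the test was checked on simulated data. The SE was the size of the log2 fold change divided by the square root of F. Alternatives were DESeq2 1.42.0, limma 3.58.1 on log2(FPKM + 0.1) and log2(FPKM + 1), where fold changes of low genes are understated, other size factors, no filter, only the 2 groups compared, Hspa1a and Hspa1b summed, a replicate block and each library left out.

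Deviations from the group means correlated between same-numbered libraries of PBS and RANKL (r = 0.122, 0.219 and 0.155), each over 0.1, so the numbers were taken to pair these 2 groups. The members and lists were chosen with earlier results of these data known. All 10 members are named. From each related list up to 3 genes per direction with the lowest adjusted p are named, and for profiles the 5 with the highest r.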

Additional observations from a re-analysis of the deposited data

How the results depend on the processing

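Counts were compared under 18 alternatives and 1 more chosen after the data were seen, which left out replicate 2 of RANKL and of RANKL + Vit D + K. The share of all tested genes called in the same direction is given in brackets. For RANKL against PBS, 1 chaperone gene was called higher (2.35%). Counts were 2 with library totals (2.84%), 2 with limma at either pseudocount (3.56% and 3.4%) and 2 with the replicate block (3.16%). They were 5 with DESeq2 (6.21%), 5 with only the 2 groups compared (6.32%) and 4 in the added alternative (4.81%). With 1 library left out they were 0 to 6 (0.54 to 5.46%). For the vitamins against RANKL, 3 were called higher (16.4%) and 1 lower (17.2%). Only the 2 groups compared gave 1 higher (12%) and 0 lower (11.9%), and the added alternative gave 6 higher (21.8%). Leaving out 1 library gave 1 to 4 higher (8.91 to 21.2%) and 0 to 1 lower (9.16 to 25.2%). For the vitamins against PBS the 8 called higher (19.8%) became 6 to 8 (11.4 to 25.6%). Directions turned in the vitamins against RANKL for 3 genes that were not called. Hspa1b was -0.22 and -0.060 by limma with pseudocounts of 0.1 and 1, and -0.71 to 0.73 with 1 library left out. Dnajb1 was -0.11 with library totals, -0.11 and -0.10 by limma, -0.0022 without the filter and -0.040 to 0.089 with 1 library left out. Hsp90ab1 was -0.10 with library totals, -0.11 by limma at either pseudocount and -0.021 to 0.12 with 1 library left out. The cause was not tested. The numbers of all genes called higher and lower ranged from 96 to 1056 and 30 to 931 for RANKL against PBS, from 1578 to 3820 and 1621 to 4783 for the vitamins against RANKL, and from 2469 to 4482 and 2297 to 4930 for the vitamins against PBS. Same-numbered libraries of RANKL and RANKL + Vit D + K correlated at 0.00625, 0.0428 and 0.107. Those of PBS and RANKL + Vit D + K correlated at -0.0216 to 0.0237. Not every value passed 0.1, so pairing was not assumed for these groups. Weak correlations cannot show that the libraries were unpaired. With the replicate block 2 genes were called higher and 1 lower in the vitamins against RANKL, beside 17.4% and 17.2% of all tested genes. A fit without 1 library leaves 2 in its group.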
